A study of Homo sapiens with 2 samples.

Results

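The 10 genes described here encode transcription factors of the myeloid blood lineage and were followed through 2 RNA-seq libraries of a human leukemia line. They are SPI1, CEBPA, CEBPE, CEBPD, GFI1, RUNX1, MYB, IRF8, KLF4 and EGR1, and each was taken by its symbol from a deposited table of 58302 genes, where all 10 were found once. The 2 libraries came from HL60-EIF2S3 cells, a stable derivative of HL60, an established acute myeloid leukemia line of promyelocyte-like cells. These cells carry an EIF2S3 transgene under a Tet-Off promoter, which is active without doxycycline and shut down by it. The library labelled DOX(-) came from untreated cells, with the transgene meant to be on. The library labelled DOX(+) came from cells treated with doxycycline, with the transgene meant to be off. Dose, time of treatment and whether the line is 1 clone are not given in the sources used here. EIF2S3 encodes a subunit of eIF2, which brings the first tRNA to the ribosome, and the series asks how its overexpression bears on proliferation and the cell cycle.

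Each condition had 1 library, so no spread between cultures could be estimated and no p-value is given. Levels are FPKM, fragments scaled to transcript length and library size, as the authors deposited them. Ratios are DOX(-) over DOX(+). Differences are of log2(FPKM + 1), and a gene counts as higher or lower at 1.5-fold or more on that scale, among 11525 genes that reached 1 FPKM in either library. The pseudocount of 1 understates the differences of low genes. Intervals are exact 95% counting intervals on fragments recovered from the FPKM, with the shortest annotated transcript, and cover counting error only.

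The steps between low FPKM values gave 16577668 fragments for the library labelled DOX(-) and 18521104 for the one labelled DOX(+). The targeted gene, EIF2S3, was listed with 132.9 FPKM for the DOX(-) label and 126.2 FPKM for the DOX(+) label. The ratio was 1.05, with an interval of 0.927 to 1.196 on the shortest annotated transcript, which included equal levels, and 1.017 to 1.090 on the longest, which did not. The log2 difference of EIF2S3, 0.07, turned to -0.03 when mitochondrial genes were left out of the scaling. The sources used here do not say if fragments of the transgene were counted to EIF2S3, so its near-equal level does not check the labels, and every direction below compares libraries as labelled. Doxycycline itself also differs between them. The promyelocyte markers ELANE, PRTN3, AZU1 and CTSG were abundant, with 76.0 to 689.2 FPKM in DOX(-), against 52.3 to 569.8 FPKM in DOX(+), and CD33 had 8.87 FPKM in DOX(-), against 8.89 FPKM in DOX(+). MPO, which encodes myeloperoxidase and is a defining marker of the same stage, was at 0.274 FPKM in DOX(-), against 0.469 FPKM in DOX(+). It was under the filter of 1 FPKM, unlike the 5 other markers of this stage, and the reason was not tested. In each of 6 lists of markers of other blood and stromal cells, no more than 2 genes reached 1 FPKM, and the summed levels of these lists were 0.162 to 12.0 FPKM in DOX(-) and 0.201 to 6.69 FPKM in DOX(+). Among them the mast cell tryptase gene TPSAB1 was higher in DOX(-), at 7.24 FPKM, against 2.98 FPKM in DOX(+), and so was its near-identical copy TPSB2, at 4.55 FPKM in DOX(-), against 1.75 FPKM in DOX(+), while the mast cell marker CPA3 was listed at 0 in both libraries. CD79A, of B cells, had 1.66 FPKM in DOX(-), against 0.709 FPKM in DOX(+), with MS4A1 and PAX5 listed at 0. On its shortest transcript CD79A had 16 fragments in DOX(-) and 7 in DOX(+), with an interval of 0.994 to 7.34 that included equal levels. On its longest transcript the interval was 1.25 to 4.38. The globin gene HBA1 had 1.33 FPKM in DOX(-), against 3.36 FPKM in DOX(+), with HBB listed at 0. The fragments of TPSAB1 and of HBA1 are uncertain, since each has a near-identical copy. The part of these markers in the results below was not tested. In bulk RNA, fewer cells of a type and less RNA per cell cannot be told apart.

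The members divide the work of building granulocytes and monocytes from progenitors. PU.1, the product of SPI1, and RUNX1 open the myeloid program early, C/EBP alpha commits progenitors to the granulocyte and monocyte path, and C/EBP epsilon drives the late steps of granulocytes. GFI1 is a repressor that favours granulocytes, while IRF8, KLF4 and EGR1 are linked to monocytes and macrophages. MYB keeps progenitors immature and dividing, and C/EBP delta is best known as a factor induced by differentiation and inflammation.

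Promoter sequences are shown for the most abundant member, for the member that was lower in DOX(-), and for a pair of monocyte-linked members that hardly registered. They are the 250 bases before a RefSeq transcription start (GRCh38.p14), 5′ to 3′ on the gene's strand: CEBPA at chr19:33302535-33302784 (minus strand), RUNX1 at chr21:34888700-34888949 (minus), KLF4 at chr9:107489770-107490019 (minus) and EGR1 at chr5:138465229-138465478 (plus). The RUNX1 start used lies 1115968 bases downstream of the outermost annotated start of the gene, and no window at that outer start was searched. For CEBPA and KLF4 the starts used lie 30 and 713 bases downstream of the outermost annotated ones. Capitals mark letters that match a searched motif on either strand.
CEBPA: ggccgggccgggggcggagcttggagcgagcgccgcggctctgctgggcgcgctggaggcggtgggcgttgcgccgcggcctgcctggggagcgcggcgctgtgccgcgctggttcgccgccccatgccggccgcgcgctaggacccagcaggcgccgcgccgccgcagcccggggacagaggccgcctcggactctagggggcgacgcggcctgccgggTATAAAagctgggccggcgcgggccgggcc
RUNX1: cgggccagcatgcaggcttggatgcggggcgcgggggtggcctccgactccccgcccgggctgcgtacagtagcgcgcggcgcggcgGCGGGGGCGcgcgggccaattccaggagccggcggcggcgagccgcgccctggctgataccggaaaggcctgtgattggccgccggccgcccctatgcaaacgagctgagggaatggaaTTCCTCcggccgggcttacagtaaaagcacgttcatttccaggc
KLF4: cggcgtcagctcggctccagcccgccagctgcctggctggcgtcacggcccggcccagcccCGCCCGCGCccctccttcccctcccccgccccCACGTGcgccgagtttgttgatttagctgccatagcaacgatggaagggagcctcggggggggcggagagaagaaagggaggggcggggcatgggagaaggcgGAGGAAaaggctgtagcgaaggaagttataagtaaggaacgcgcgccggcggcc
EGR1: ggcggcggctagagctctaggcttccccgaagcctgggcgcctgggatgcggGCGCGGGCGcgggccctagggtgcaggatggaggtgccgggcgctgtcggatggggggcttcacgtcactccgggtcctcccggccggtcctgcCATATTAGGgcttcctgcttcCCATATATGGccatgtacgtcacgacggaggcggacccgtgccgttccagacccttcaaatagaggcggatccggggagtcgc

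Motifs were searched on both strands in windows of 300 bases that also hold 50 bases after the start. Of the 10 members 8 had such windows, 11 in all, out of 35116 in the RefSeq table. The letters CATATNNGG, part of the serum response element, stood at 2 places in the EGR1 window, at 1 of them on both strands, and 1.31% of all windows held them. The TATA box, TATAAA, was found in CEBPA alone among the members and in 11.5% of all windows. In CEBPA it begins 30 bases before the RefSeq start, which is at the outermost annotated start of the gene. The E-box of MYC, CACGTG, was found in KLF4 alone among them and in 7.26% of all windows. Letters of a PU.1 site, GAGGAA, occurred in 5 of the 11 windows, those of CEBPE, RUNX1, MYB and KLF4 and 1 of GFI1, against 27.9% of all windows. Those of an EGR site, GCGNGGGCG, occurred in 4 windows, of CEBPA, RUNX1, KLF4 and EGR1, against 9.43% of all, and in KLF4 on the other strand. A RUNX site, TGTGGT, was found in 1 window each of GFI1 and IRF8 and in 13.1% of all windows. The letters of a C/EBP site, TTGCNNAA, were found in 1 window of GFI1 and in 10.5% of all windows. Such a match describes letters and not a bound site.

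Of the 10 members 7 passed the filter of 1 FPKM, and they covered a wide range of levels. CEBPA was the most abundant in both libraries, at 151.4 FPKM in DOX(-), against 169.6 FPKM in DOX(+), which put it at place 102 of 19817 protein-coding genes in DOX(-) and place 81 in DOX(+). GFI1, MYB and SPI1 followed in this order in both libraries. IRF8 came next in DOX(-) and CEBPE after it, while in DOX(+) CEBPE stood above IRF8. RUNX1 was the lowest of the 7. EGR1, KLF4 and CEBPD stayed under 1 FPKM in both libraries and were not tested. The counting intervals of the levels overlapped between MYB and SPI1 in DOX(-), at 34.9 to 45.5 FPKM for MYB and 32.1 to 39.2 FPKM for SPI1, and not in DOX(+), at 35.4 to 45.4 FPKM for MYB and 26.4 to 32.6 FPKM for SPI1. Those of IRF8 and CEBPE did not overlap in DOX(-), at 15.3 to 23.3 FPKM for IRF8 and 7.81 to 10.2 FPKM for CEBPE, and overlapped in DOX(+), at 7.42 to 13.0 FPKM for IRF8 and 11.3 to 13.98 FPKM for CEBPE. On the longest transcripts neither of these pairs overlapped in either library. The intervals of EGR1 and KLF4 overlapped in both libraries on either length. RUNX1 and IRF8 overlapped narrowly in DOX(+) on the shortest transcripts, at 3.136 to 7.424 FPKM and 7.417 to 12.95 FPKM. They did not in DOX(-), nor on the longest transcripts. KLF4 and CEBPD overlapped in DOX(-) on either length and not in DOX(+).

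**Figure D1:**
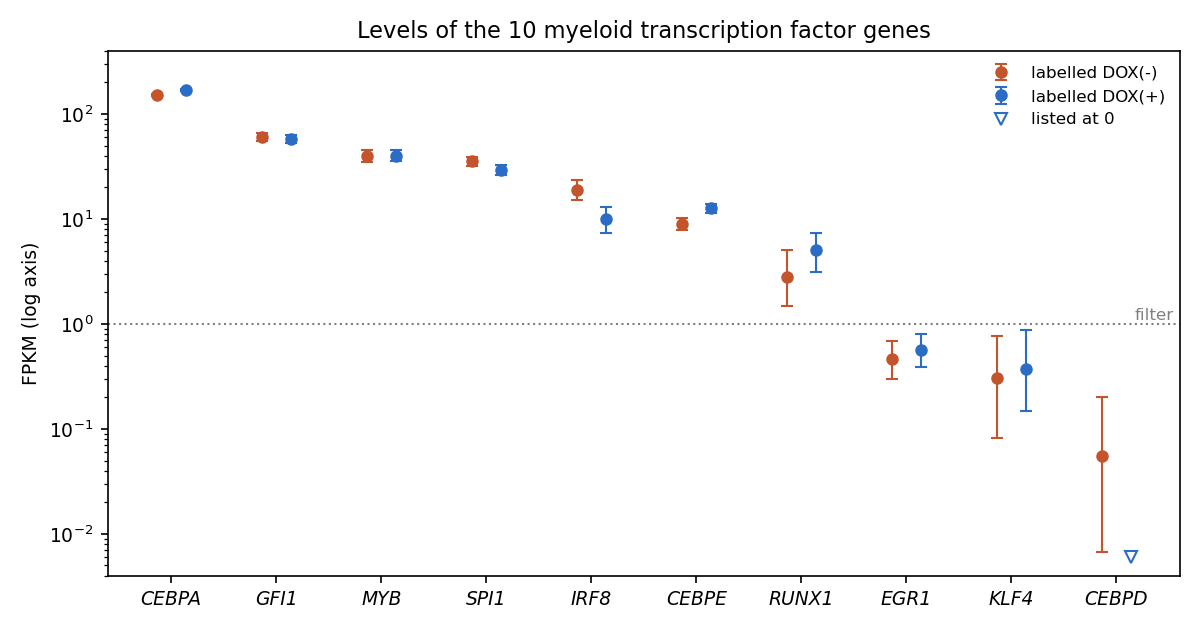
Level of each member in FPKM (log axis), with the library labelled DOX(-) at the left of each pair and DOX(+) at the right. Bars are 95% counting intervals on the shortest annotated transcript, the open triangle marks a gene listed at 0, and the dotted line is the filter of 1 FPKM. CEBPA stands highest in both libraries, with 151.4 FPKM in DOX(-), against 169.6 FPKM in DOX(+), and EGR1, KLF4 and CEBPD lie under the filter.

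By the 1.5-fold rule 1 member was higher in the library labelled DOX(-), IRF8, and 1 was lower, RUNX1. Of all 11525 genes tested, 3.11% were higher and 4.06% lower by the same rule. That was 358 genes higher and 468 lower, or 262 higher and 657 lower when mitochondrial genes were left out of the scaling. The median difference of the 7 tested members was -0.01 on the log2(FPKM + 1) scale, and that of all genes was -0.02. The median of the members had the opposite sign under 2 scalings, 0.01 under median-of-ratios and 0.02 under trimmed-mean scaling. At a threshold of 2-fold no member was called, while 0.833% of all genes were higher and 1.2% lower.

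IRF8 (chromosome 16, 85898803 to 85922609, GRCh38, plus strand) had 18.9 FPKM in DOX(-), against 9.94 FPKM in DOX(+). The ratio was 1.902, with a counting interval of 1.352 to 2.745 on the shortest of its 11 annotated transcripts and 1.71 to 2.11 on the longest. Both intervals lay above equal levels. Its log2 difference was 0.86 and ranged from 0.77 to 0.92 over the pseudocounts and scalings tried. IRF8 is the factor that directs shared granulocyte and monocyte progenitors to the monocyte and dendritic path, in mouse above all, and its loss there expands granulocytes.

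RUNX1 (chromosome 21, 34787801 to 36004667, minus strand) had 2.79 FPKM in DOX(-), against 5.04 FPKM in DOX(+). RUNX1 binds DNA together with CBF beta and is a frequent target of translocation and mutation in myeloid leukemia. The ratio was 0.553, and its log2 difference was -0.67, or -0.83 to -0.66 over the alternatives. The counting interval depended on transcript length. The gene has 17 annotated transcripts of 251 to 7274 bases, and on the shortest the counts came to 12 fragments in DOX(-) and 23 in DOX(+), with an interval of 0.264 to 1.22 that included equal levels. On the longest they came to 336 fragments in DOX(-) and 679 in DOX(+), with an interval of 0.484 to 0.631. A different division of fragments between these transcripts could also move the FPKM, for RUNX1 and for the other members with several transcripts, and this was not tested.

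Among the C/EBP members, which bind DNA as leucine zipper dimers, the deposited gene models have 1 transcript each, so their fragments are known without a choice of length. CEBPA had 6603 fragments in DOX(-) and 8266 in DOX(+), a ratio of 0.892 with an interval of 0.864 to 0.922. CEBPE had 230 fragments in DOX(-) and 363 in DOX(+), which are 8.93 FPKM in DOX(-), against 12.6 FPKM in DOX(+). This is a ratio of 0.708 with an interval of 0.597 to 0.837. Both were lower in DOX(-) beyond counting error and within 1.5-fold, with log2 differences of -0.16 for CEBPA and -0.46 for CEBPE. These stayed below 0 under every scaling tried. CEBPD had 2 fragments in DOX(-) (0.0554 FPKM) and was listed at 0 in DOX(+). Both values lie under the level of 3 fragments, 0.0831 FPKM in DOX(-), against 0.0744 FPKM in DOX(+), so no ratio is given.

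SPI1, which encodes PU.1, the ETS factor that all myeloid cells need, had 35.5 FPKM in DOX(-), against 29.4 FPKM in DOX(+). The ratio was 1.21, with an interval of 1.04 to 1.40 that lay above equal levels, and the log2 difference was 0.26 (0.17 to 0.29 over the alternatives). The level of SPI1 came to 0.235 of that of CEBPA in DOX(-) and 0.173 in DOX(+). The level of IRF8 came to 2.12 times that of CEBPE in DOX(-) and 0.788 times in DOX(+).

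GFI1 and MYB had the smallest differences of the 7 tested members. GFI1, a zinc finger repressor, had 60.7 FPKM in DOX(-), against 57.4 FPKM in DOX(+), a ratio of 1.06 with an interval of 0.935 to 1.195 on the shortest transcript and 1.01 to 1.11 on the longest. Its log2 difference of 0.08 turned to -0.02 when mitochondrial genes were left out of the scaling. MYB had 39.96 FPKM in DOX(-), against 40.1 FPKM in DOX(+), a ratio of 0.996 with an interval of 0.828 to 1.194. Its log2 difference of -0.01 was of the opposite sign under median-of-ratios (0.01) and trimmed-mean scaling (0.02).

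EGR1 and KLF4, zinc finger factors linked to monocyte differentiation, were low throughout. EGR1 has 1 annotated transcript and had 24 fragments in DOX(-) and 33 in DOX(+), which are 0.461 FPKM in DOX(-) and 0.568 FPKM in DOX(+). KLF4 had 0.304 FPKM in DOX(-), against 0.375 FPKM in DOX(+), or 4 fragments in DOX(-) and 6 in DOX(+) on its shortest transcript. Both ratios (0.813 for EGR1, 0.811 for KLF4) had intervals that included equal levels, 0.460 to 1.42 and 0.155 to 3.14. A difference of either gene was not detectable at this depth.

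**Figure D2:**
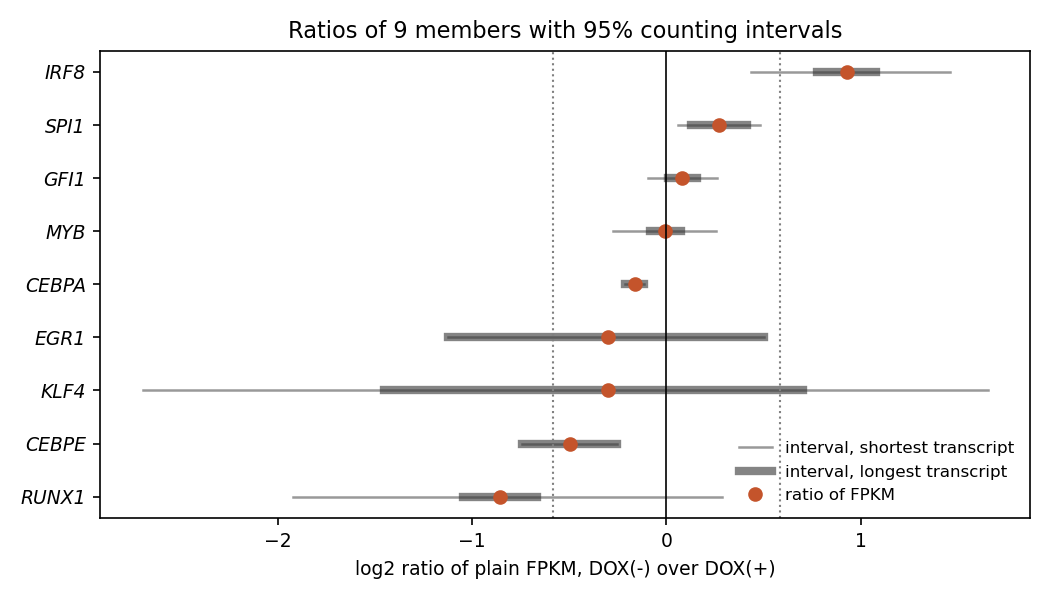
Ratio of plain FPKM (log2 axis) of the 9 members listed above 0 in both libraries, DOX(-) over DOX(+). Thin lines are 95% counting intervals on the shortest annotated transcript and thick lines on the longest, and dotted lines mark 1.5-fold. IRF8 (ratio 1.902) and RUNX1 (0.553) lie outside the dotted lines, and the thin interval of RUNX1 crosses equal levels.

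Set beside the other genes of their families, several members were the main family gene of these cells and others were not. CEBPA made up 73.6% of the summed FPKM of 6 C/EBP genes in DOX(-) and 75.6% in DOX(+). CEBPG and CEBPB followed at 21.7 and 18.9 FPKM in DOX(-), against 22.9 and 17.6 FPKM in DOX(+), ahead of CEBPE. SPI1 made up 99.8% of 3 SPI genes in DOX(-) and 99.7% in DOX(+), and GFI1 99.6% in DOX(-) and 99.4% in DOX(+) of the pair with GFI1B, its erythroid relative. IRF8 led 9 interferon regulatory factor genes with 64.0% of their sum in DOX(-) and 50.9% in DOX(+). IRF4, its closest relative, was at 0.0184 FPKM in DOX(-), against 0.0330 FPKM in DOX(+). IRF2 was at 3.87 FPKM in DOX(-), against 2.66 FPKM in DOX(+), and IRF5 at 2.51 FPKM in DOX(-), against 3.30 FPKM in DOX(+).

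RUNX1, MYB and KLF4 were not the main genes of their families. RUNX3 stood above RUNX1 in listed FPKM, at 6.33 FPKM in DOX(-), against 6.52 FPKM in DOX(+). That was 2.27 times the level of RUNX1 in DOX(-) and 1.29 times in DOX(+). On the shortest transcripts the counting intervals of the levels overlapped in both libraries. In DOX(-) they were 4.30 to 9.10 FPKM for RUNX3 and 1.49 to 5.04 FPKM for RUNX1. In DOX(+) they were 4.48 to 9.03 FPKM for RUNX3 and 3.14 to 7.42 FPKM for RUNX1. On the longest transcripts they did not overlap in either library. RUNX2 was at 2.40 FPKM in DOX(-), against 2.50 FPKM in DOX(+), so that RUNX1 was the one RUNX gene past 1.5-fold. MYBL2, a cell cycle regulator, had 128.0 FPKM in DOX(-), against 124.7 FPKM in DOX(+), or 3.20 times the level of MYB in DOX(-) and 3.11 times in DOX(+). KLF4 held place 9 of the 13 KLF genes read in both libraries, and KLF13 led them with 13.4 FPKM in DOX(-), against 20.8 FPKM in DOX(+).

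In the whole list of 32 family relatives, 17 were tested, 1 was higher and 1 lower in DOX(-), with a median log2 difference of -0.04, against 3.11% of all genes higher and 4.06% lower. With a pseudocount of 0.1 the lower ones came to 3, and to 2 when mitochondrial genes were left out of the scaling. The higher one was DDIT3, which encodes CHOP, a C/EBP protein that blocks its relatives by pairing with them. DDIT3 was at 4.63 FPKM in DOX(-), against 1.73 FPKM in DOX(+) (log2 difference 1.05, ratio 2.68, interval 1.53 to 4.58). With a filter of 5 FPKM it was not tested and no relative was higher. The lower one was KLF13 (log2 difference -0.60, ratio 0.645, interval 0.495 to 0.841). KLF13 lay within 1.5-fold under median-of-ratios and trimmed-mean scaling.

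**Figure D3:**
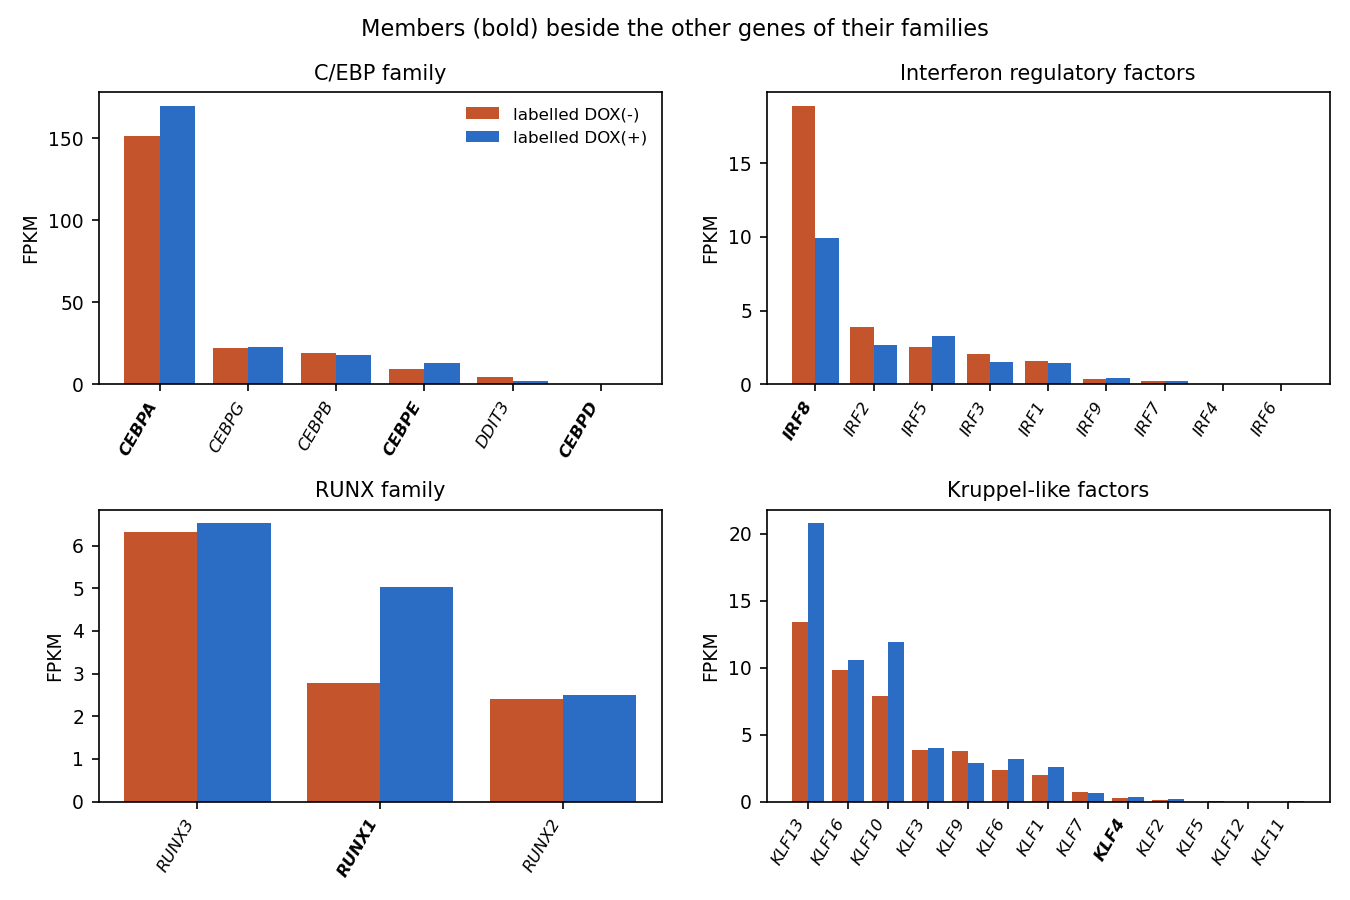
FPKM of the genes of 4 families, with members in bold and the library labelled DOX(-) at the left of each pair. CEBPA and IRF8 are the tallest of their families in both libraries, while RUNX3 stands above RUNX1 and KLF4 is near 0.

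Of 20 partners and regulators of the members 17 were tested, none was higher and 1 was lower in DOX(-), with a median log2 difference of -0.12, where 4.06% of all genes were lower. With pseudocounts of 0.1 and 0.5 and without mitochondrial genes in the scaling 2 were lower, and none with a filter of 5 FPKM. The lower one was TRIB2, whose product marks C/EBP alpha for degradation, at 2.35 FPKM in DOX(-), against 4.31 FPKM in DOX(+) (log2 difference -0.67, ratio 0.545, interval 0.311 to 0.897). CBFB, which encodes the partner of RUNX1, had 5.64 FPKM in DOX(-), against 5.54 FPKM in DOX(+). KDM1A, RCOR1 and HDAC1, which encode corepressors of GFI1, were the most abundant of the list, with log2 differences of 0.06, -0.20 and -0.19. KDM1A and CBFB had the opposite sign when mitochondrial genes were left out of the scaling.

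Of 34 other lineage factors 22 were tested, none was higher and 1 was lower, ID1, an inhibitor of helix-loop-helix factors, at 3.01 FPKM in DOX(-), against 5.04 FPKM in DOX(+) (log2 difference -0.59). ID1 lay within 1.5-fold under median-of-ratios and trimmed-mean scaling, while 3 of the list were lower with pseudocounts of 0.1 and 0.5 and without mitochondrial genes in the scaling. With a pseudocount of 0.1, 1 was also higher. Over all genes 4.06% were lower. The most abundant were LYL1 (37.9 FPKM in DOX(-), 32.2 FPKM in DOX(+)), STAT5B (17.6 FPKM in DOX(-), 14.1 FPKM in DOX(+)) and FLI1 (14.9 FPKM in DOX(-), 14.1 FPKM in DOX(+)). The erythroid factor GATA1 was under 1 FPKM at 0.207 FPKM in DOX(-), against 0.494 FPKM in DOX(+). KLF1, also an erythroid factor, was tested and lay within 1.5-fold, at 2.01 FPKM in DOX(-), against 2.58 FPKM in DOX(+). The lymphoid factors PAX5 and GATA3 were listed at 0 in both libraries. The median log2 difference of the tested genes was -0.06.

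Genes known as targets of the members were read in lists of their own, beside 3.11% of all genes higher and 4.06% lower. Of 10 primary granule genes all but MPO were tested, and these 9 lay within 1.5-fold. Their median log2 difference was -0.01, and 0.01 under median-of-ratios and trimmed-mean scaling. SRGN, CTSG and ELANE led them, with log2 differences of -0.01, 0.27 and 0.40, of which that of SRGN turned to 0.01 under the same scalings. None of 12 late granulocyte genes, many of them targets of C/EBP epsilon, reached 1 FPKM in either library, and their summed level was 1.52 FPKM in DOX(-), against 1.63 FPKM in DOX(+). By FPKM averaged over both libraries, the highest were ITGAM (0.584 FPKM in DOX(-), 0.629 FPKM in DOX(+)), PTX3 (0.373 FPKM in DOX(-), 0.390 FPKM in DOX(+)) and FPR1 (0.0712 FPKM in DOX(-), 0.287 FPKM in DOX(+)). LTF, which encodes lactoferrin, had 0.215 FPKM in DOX(-), against 0.0963 FPKM in DOX(+), and MMP9 and LCN2 were listed at 0 in both.

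Among 14 monocyte genes linked to IRF8, KLF4 and PU.1, 8 were tested and all 8 lay within 1.5-fold, with a median log2 difference of -0.11. The phagocyte oxidase genes NCF4 and CYBB were at 79.2 FPKM and 20.3 FPKM in DOX(-), against 84.2 FPKM and 25.5 FPKM in DOX(+). CD68 was at 21.3 FPKM in DOX(-), against 18.1 FPKM in DOX(+). CD74, of antigen presentation, was at 0.0838 FPKM in DOX(-), against 0.158 FPKM in DOX(+). Of 8 cytokine receptor genes 4 were tested and lay within 1.5-fold, led by IL6R (26.7 FPKM in DOX(-), 31.8 FPKM in DOX(+)). CSF3R and CSF2RB, receptors of granulocyte growth factors, were at 3.28 and 3.13 FPKM in DOX(-), against 2.75 and 3.10 FPKM in DOX(+), with a list median of 0.08. CSF1R, the receptor of the macrophage growth factor, was at 0.127 FPKM in DOX(-), against 0.0891 FPKM in DOX(+).

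Among 7 genes known as targets of MYB, 4 were tested and MYC alone was past 1.5-fold. It had 29.5 FPKM in DOX(-), against 2.06 FPKM in DOX(+), a log2 difference of 3.32, while the ratio of MYB itself was 0.996. The other 3 lay within 1.5-fold, CCNB1, ADA and BCL2, with log2 differences of -0.06, 0.23 and -0.02. Genes known to be repressed by GFI1 include IRF8 and SPI1, and of 13 such genes 7 were tested, with 1 higher (IRF8), 1 lower (ID1) and a median of 0.05, or -0.02 when mitochondrial genes were left out of the scaling. By FPKM averaged over both libraries, ID2 was the most abundant of them after SPI1 and IRF8. It had 11.2 FPKM in DOX(-), against 12.6 FPKM in DOX(+). Of 18 immediate early genes, the class of EGR1, 10 were tested. MYC was higher, and the AP-1 subunit genes FOSL2 (1.13 FPKM in DOX(-), 3.70 FPKM in DOX(+)) and JUND (4.19 FPKM in DOX(-), 15.5 FPKM in DOX(+)) were lower, with a median of 0.17. SRF, whose product binds serum response elements, had 46.1 FPKM in DOX(-), against 47.8 FPKM in DOX(+), and JUNB, of AP-1, had 28.8 FPKM in DOX(-), against 24.6 FPKM in DOX(+).

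**Figure D4:**
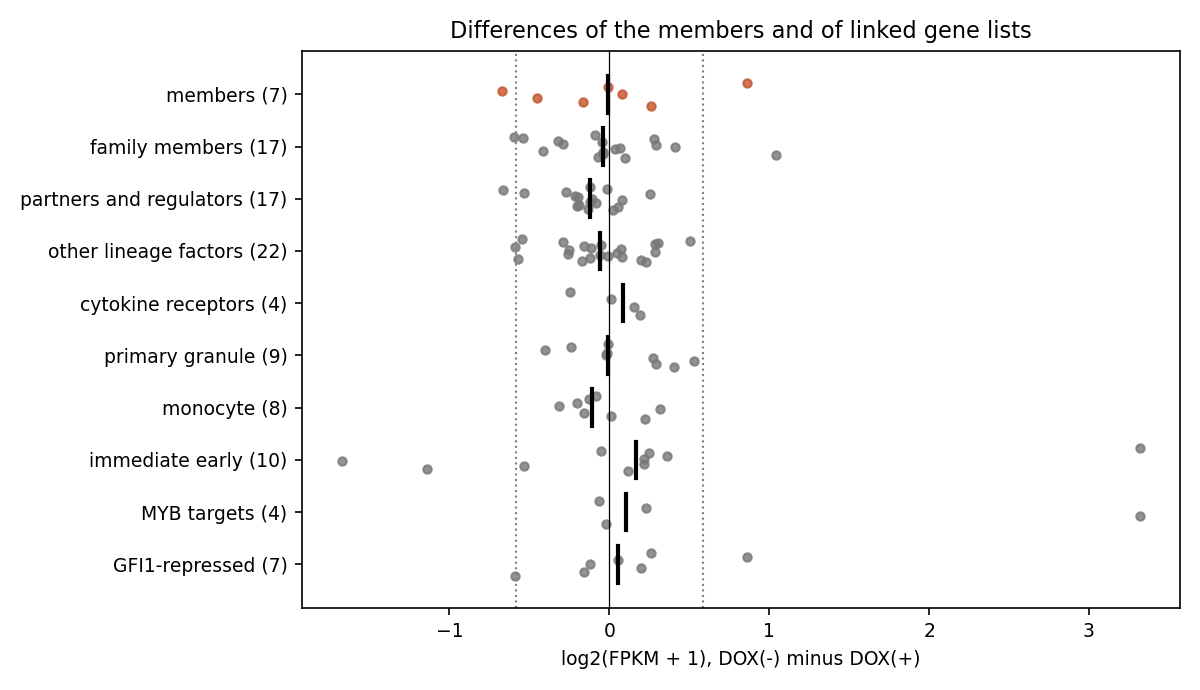
Difference in log2(FPKM + 1), DOX(-) minus DOX(+), for each tested gene of 10 lists, with the number tested in brackets. Black bars are list medians and dotted lines mark 1.5-fold. The members spread from -0.67 (RUNX1) to 0.86 (IRF8) around a median of -0.01, and MYC lies far to the right at 3.32 in the immediate early and MYB target lists.

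Genes around the members were also read, since shared or antisense fragments could enter a member's value. Within 50 kb of the 10 members the table lists 47 other genes, 15 of which were tested, and 1 was past 1.5-fold. It was AC008738.5, an antisense gene (chromosome 19, 33301279 to 33301940, plus strand) whose 482 exon bases all lie within the CEBPA exon on the other strand. It had 15 fragments in DOX(-) and 1 in DOX(+), which are 1.88 FPKM in DOX(-), against 0.112 FPKM in DOX(+). This is a ratio of 16.8 with an interval of 2.58 to 705.5, and it passed the filter through DOX(-) alone. A second antisense gene in CEBPA, AC008738.3, was at 0.915 FPKM in DOX(-), against 0.410 FPKM in DOX(+). The sources used here do not say if the libraries kept strand, so fragments of CEBPA and of these genes cannot be told apart. Both are small beside CEBPA.

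CEBPA-DT, a noncoding gene that starts 293 bases from CEBPA and runs the other way, had 1.34 FPKM in DOX(-), against 1.302 FPKM in DOX(+). In IRF8 the one overlapping gene, MIR6774, had 2 fragments in each library and shares no exon base with it. In RUNX1 the overlapping genes share no exon base with it either, and EZH2P1 was the only one of 7 above 0, at 0.622 FPKM in DOX(-), against 0.742 FPKM in DOX(+). MYB-AS1, which overlaps MYB, was listed at 0 in both libraries.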

How the data were processed

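Total RNA of HL60-EIF2S3 cells was sequenced, 1 library per condition. The authors deposited FPKM values in 1 table, with 1 column per library, per the file headers. Tools listed in the submitters' processing notes, without roles, are StringTie 1.3.4b, HISAT2 2.1.0, CASAVA 1.8 and edgeR, and the build is GRCh38 (hg38). Since FPKM scales by length and depth, the annotated lengths and the division of fragments between transcripts bear on each level.

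GENCODE release 29 held 58039 of the 58302 identifiers, 56647 of them at an identical locus, all 10 members included. In genes with 1 transcript, FPKM values are multiples of 1 fragment: 99.98% of 5561 values up to 100 fragments in DOX(-) and 99.97% of 5949 in DOX(+) came out whole within 0.02. For a transcript of 1 kb, 3 fragments come to 0.181 FPKM in DOX(-), against 0.162 FPKM in DOX(+). Fragments carry no molecular identifiers, so intervals (conditional Clopper-Pearson for ratios, exact Poisson for levels, 95%) cover counting error only. Computation used Python 3.11.15, numpy 2.4.6, pandas 2.3.3 and scipy 1.17.1, and the depth, calls and intervals were tested on simulated data.

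The members and the 17 other lists (190 symbols with the members, all in the table) were chosen with earlier results of these data known. Named genes are the members, EIF2S3, overlapping or differing neighbours, and in each list those past 1.5-fold and the 3 most abundant. Abundance was ranked by FPKM averaged over both libraries. Other names were added for their role or place after their values were seen. These are CBFB, CD33, CD74, MPO, CPA3, HBB, MS4A1, AZU1, GFI1B, CSF1R, LTF, MMP9, LCN2, GATA1, GATA3 and PAX5. KLF1, BCL2, IRF2, IRF4, IRF5, RUNX2, RUNX3 and CEBPA-DT were added in the same way. The marker lists are given as ranges with the few genes past 1.5-fold. With 2 libraries, no genes of like pattern were sought. Promoter windows came from RefSeq (GRCh38.p14), and stretches with over 30 bases in annotated exons were not printed.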

Additional observations from a re-analysis of the deposited data

How the results depend on the processing

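IRF8 stayed the 1 member called higher and RUNX1 the 1 called lower under pseudocounts of 0.1 and 0.5, no filter, a filter of 5 FPKM, 3 scalings and protein-coding genes only. RUNX1 passed the filter of 5 FPKM through DOX(+) alone, where it was higher, so its call there is no check. At a 2-fold threshold both counts were 0. Over all genes, 358 were higher and 468 lower in DOX(-), and these counts were 631 and 880 with a pseudocount of 0.1, 161 and 205 with a filter of 5 FPKM, 96 and 138 at 2-fold, and 219 and 277 among protein-coding genes. Leaving mitochondrial genes out of the scaling shifted all log2 ratios by -0.10, which took CEBPA to -0.26 and CEBPE to -0.55, both within 1.5-fold still. The split of all calls was then 262 higher and 657 lower. The longest in place of the shortest transcript moved the counting intervals of RUNX1 and GFI1 off equal levels and left the other 8 members on the same side. With 1 library per condition, no replicate could be left out. No paired analysis was possible because each condition has 1 library and the result comes from no test. Depth limits EGR1, KLF4 and CEBPD, and RUNX1 on its shortest transcript.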
